A study of Mus musculus with 8 samples.

Results

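Alternative activation is the state that macrophages take up when interleukin 4 or interleukin 13 binds a receptor containing the IL-4 receptor alpha chain and activates the transcription factor STAT6. Macrophages in this state carry more lectins for glycans, secrete the resistin-like protein RELM alpha and make chemokines that draw T cells, and they are known for their part in clearing debris and rebuilding injured tissue. In liver, several of these genes are also used by other cells, such as the mannose receptor in sinusoidal endothelial cells and the chemokines CCL17 and CCL22 in dendritic cells. The 9 genes followed here were Il4ra, the receptor chain itself, Mrc1, Clec10a and Mgl2, which encode glycan-binding lectins, Retnla, a secreted factor, Tgm2, an enzyme that crosslinks proteins, Ccl17 and Ccl22, which encode chemokine ligands of CCR4, and Pdcd1lg2, which encodes PD-L2, a ligand of the inhibitory T cell receptor PD-1. They were chosen by name as markers of this state, and each of the 9 had exactly 1 single-symbol row among 22180 genes tested on an Affymetrix array.

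The mice were male FVB/N animals of 8 weeks. Mice of the first group received 50 µg recombinant CPS1 (rCPS1), an enzyme of the hepatocyte urea cycle, and mice of the other group 25 µg recombinant transferrin (rTF), a plasma protein that carries iron. Either protein was given through the tail vein 12 h ahead of an intraperitoneal dose of 350 mg/kg acetaminophen, which injures hepatocytes, so both groups carried the injury and no uninjured mice enter these values. Hepatic macrophages were then taken for total RNA, with 4 arrays per group, but all titles read Mouse1, so whether the arrays of a group came from separate mice is not settled by the labels. The p-values therefore cover no more than the scatter of these 8 arrays, part or all of which may be technical. The comparison addresses whether rCPS1 shifts macrophages of the injured liver towards an anti-inflammatory state. The groups differ both in the protein and in its amount, so effects of these cannot be told apart. No mice without an injected protein enter these values.

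Values are log2 levels made with RMA, per the submitters' processing notes, and levels of different genes cannot be set against each other. The array medians lay between 3.55 and 3.68. The macrophage markers were present: the mean level of 9 macrophage identity genes, led by Lyz2 and Cd68, was 9.64 to 9.82 on the rCPS1 arrays and 9.75 to 10.02 on the rTF arrays. Of these 9 genes, 7 were lower in the rCPS1 mean and 2 higher, with 0 at an adjusted p under 0.05. At an unadjusted limma p under 0.05, 3 were lower, against 2.79% of all genes. Groups did not overlap for 3, all lower with rCPS1, against 2.92% of all genes in either direction. Genes of sinusoidal endothelial cells, led by Clec4g and Fcgr2b, averaged 11.01 to 11.21 with rCPS1 and 10.93 to 11.22 with rTF, and all 15 lay above the median row, so these markers were present beside those of macrophages. In such bulk RNA, fewer cells of a type and less RNA per cell cannot be told apart.

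None of the 9 genes differed between rCPS1 and rTF beyond the spread between arrays. With limma, 0 of 9 had an adjusted p under 0.05 and the smallest adjusted p was 0.98, against 0% of all genes, whose smallest adjusted p was 0.862. At an unadjusted p under 0.05 the count was likewise 0 of 9, against 4.67% of all genes, and the groups did not separate for any of the 9, against 2.92% of all genes. In 6 genes the rCPS1 mean was lower and in 3 it was higher, with a median log2 difference (rCPS1 minus rTF) of -0.16 over the 9 genes and -0.018 over all genes tested. For the receptor, the mannose receptor and transglutaminase the differences were 0.032, 0.066 and 0.041, and for Retnla and Pdcd1lg2 -0.15 and -0.16. The 2 galactose-type lectins and the 2 chemokines had means lower by 0.28 to 0.59. The 95% interval of every one of the 9 genes held 0, and differences between genes were not tested.

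**Figure D1:**
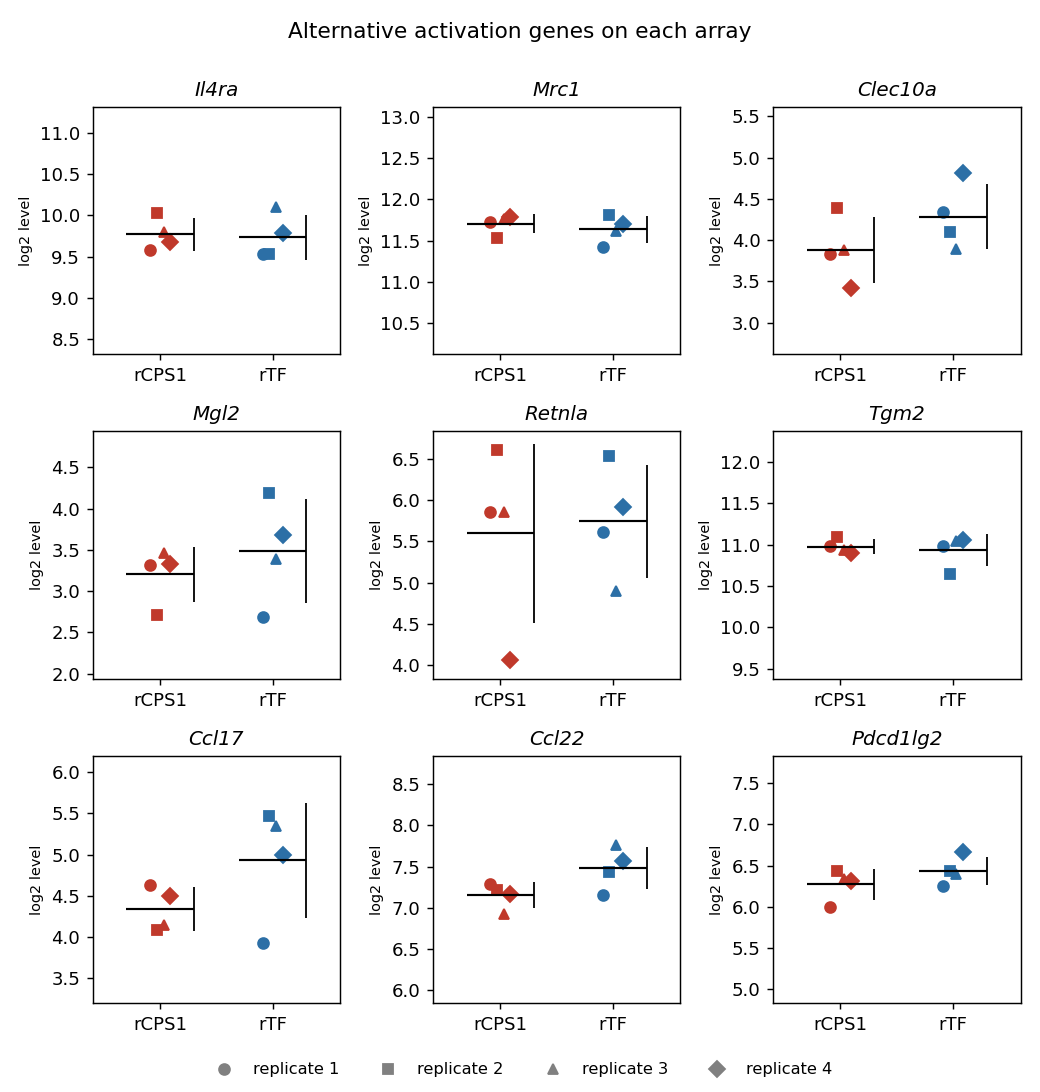
Log2 level (vertical axis, the same span of 3 units in every panel) of each of the 9 genes on the 4 rCPS1 arrays (red) and the 4 rTF arrays (blue); marker shapes give the replicate, the horizontal line is the group mean and the vertical line its SD. Every gene's groups overlap, Mrc1 and Tgm2 vary little, and Retnla spans 2.55 units.

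Of the 9 genes, 3 have, in the RefSeq promoter table (build GRCm38.p6), a stretch of the form bound by STAT6, the palindrome TTCNNNNGAA, in the window from 250 bases before to 50 after the transcript start. Of the 7 members found in that table, these were Retnla, Pdcd1lg2 and Ccl17, and Mrc1, Mgl2, Il4ra and Ccl22 had no match in their window. Among all 32851 windows 6.95% hold the palindrome, which reads the same on both strands. The related form with a spacer of 3 bases, TTCNNNGAA, occurs in 8.3% of windows and in that of Ccl17 only among these 7. The 200 bases before the start are shown for the 3 genes because their expression can be set beside the same motif, with the matches in capitals. They lie on the plus strand at chr16:48842409-48842608 for Retnla, chr19:29410719-29410918 for Pdcd1lg2 and chr8:94810253-94810452 for Ccl17.
Retnla: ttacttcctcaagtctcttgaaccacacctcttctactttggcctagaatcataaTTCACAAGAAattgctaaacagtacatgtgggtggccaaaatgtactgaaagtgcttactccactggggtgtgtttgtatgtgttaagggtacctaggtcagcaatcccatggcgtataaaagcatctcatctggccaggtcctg
Pdcd1lg2: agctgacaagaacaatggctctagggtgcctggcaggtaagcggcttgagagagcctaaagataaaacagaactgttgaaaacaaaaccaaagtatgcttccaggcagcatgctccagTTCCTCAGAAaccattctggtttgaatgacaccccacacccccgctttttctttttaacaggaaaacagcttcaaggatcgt
Ccl17: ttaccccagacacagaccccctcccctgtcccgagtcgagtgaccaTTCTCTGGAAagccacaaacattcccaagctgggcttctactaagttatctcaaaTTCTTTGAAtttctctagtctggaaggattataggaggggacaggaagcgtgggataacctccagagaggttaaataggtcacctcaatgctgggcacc
The spacer-4 match began 145 bases before the start in Retnla, 82 in Pdcd1lg2 and 154 in Ccl17, and the spacer-3 match of Ccl17 began 99 bases before it. A match is a description of the letters and not evidence of binding. The log2 differences of these genes, in the same order, were -0.15, -0.16 and -0.59.

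The IL-4 receptor alpha chain gene did not differ between the groups beyond its error. Il4ra was at 9.58, 10.03, 9.80 and 9.67 on the rCPS1 arrays, against 9.53, 9.53, 10.10 and 9.79 on the rTF arrays. The highest and the lowest of these values both belong to rTF, and its replicates 1 and 2 hold an identical deposited value, as 2 or more arrays do in 1621 of the 41345 rows. The log2 difference was 0.032 ± 0.16 (SE), a ratio of 1.02 with a 95% interval of 0.80 to 1.31 (limma, adjusted p = 0.99).

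Mrc1, the mannose receptor CD206 that takes up glycoproteins, was the most even of the lectins. Its level was 11.73, 11.54, 11.77 and 11.79 with rCPS1, against 11.43, 11.81, 11.61 and 11.71 with rTF. The lowest and the highest array were both rTF. The difference was 0.066 ± 0.12 (SE), a ratio of 1.05 with a 95% interval of 0.869 to 1.26 (limma, adjusted p = 0.982), and without rTF replicate 1 it was -0.0048. Sinusoidal endothelial cells make much of the liver's mannose receptor, and with the endothelial marker mean of each array in the fit the Mrc1 difference was 0.046 ± 0.11 (SE). With the mean of dendritic cell genes, described below, in the fit instead, the Mrc1 difference was 0.20 ± 0.12 (SE).

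Clec10a and Mgl2 encode the galactose-type lectins MGL1 and MGL2, which bind terminal galactose and N-acetylgalactosamine. They are neighbours on chromosome 11, with no annotated gene between them. Clec10a was at 3.83, 4.39, 3.88 and 3.42 with rCPS1, against 4.34, 4.10, 3.89 and 4.81 with rTF. In all, 3 of the rCPS1 arrays lay below every rTF array and rCPS1 replicate 2 lay above 3 of the 4 rTF arrays. The difference was -0.41 ± 0.24 (SE), a ratio of 0.755 with a 95% interval of 0.524 to 1.09 (limma, adjusted p = 0.98). Leaving out replicate 4 gave -0.23 where the array was rTF and -0.25 where it was rCPS1. Leaving out replicate 2 of rCPS1 gave -0.58 with an unadjusted limma p of 0.0299 and an adjusted p of 0.972.

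Mgl2 was at 3.31, 2.71, 3.46 and 3.33 with rCPS1, against 2.69, 4.19, 3.39 and 3.67 with rTF. Both the lowest and the highest value were rTF arrays. The difference was -0.28 ± 0.29 (SE), a ratio of 0.822 with a 95% interval of 0.525 to 1.29 (limma, adjusted p = 0.98), without passing the test. It was -0.049 without rTF replicate 2, the highest array, and -0.55 without rTF replicate 1, the lowest (limma, unadjusted p = 0.0411, adjusted p = 0.885). Mgl2 was the only one of the 9 genes whose row mean lay below the median row of the array, 3.603, which is the dim end of the scale.

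Retnla, which encodes the secreted RELM alpha, varied more from array to array than nearly any other gene. Its level was 5.86, 6.61, 5.86 and 4.06 with rCPS1, against 5.61, 6.54, 4.90 and 5.92 with rTF. The highest values of the groups were close to each other and the lowest was rCPS1 replicate 4. The difference was -0.15 ± 0.51 (SE), and 99.8% of genes tested had a smaller SE. Its 95% interval ran from 0.413 to 1.98 in ratio (limma, adjusted p = 0.988). Single arrays set the sign: the difference was 0.37 without rCPS1 replicate 4, 0.12 without rTF replicate 2 and -0.48 without rCPS1 replicate 2.

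Tgm2, tissue transglutaminase, was at 10.98, 11.10, 10.93 and 10.90 with rCPS1, against 10.99, 10.65, 11.04 and 11.06 with rTF. Its values sat together apart from rTF replicate 2, the lowest. The difference was 0.041 ± 0.12 (SE), a ratio of 1.03 with a 95% interval of 0.85 to 1.25 (limma, adjusted p = 0.988), and -0.054 without that array. With the endothelial marker mean in the fit the difference was 0.052 ± 0.13 (SE), and with the mean of dendritic cell genes instead it was -0.062 ± 0.13.

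The chemokine genes Ccl17 and Ccl22 had rCPS1 means lower by 0.59 and 0.33 on the log2 scale, without passing the test. They lie near each other on chromosome 8, with 1 protein-coding gene between them, Cx3cl1, which encodes the chemokine fractalkine. Ccl17 was at 4.63, 4.09, 4.14 and 4.50 with rCPS1, against 3.93, 5.46, 5.34 and 4.99 with rTF. All 4 rCPS1 arrays lay below 3 of the rTF arrays, but rTF replicate 1 was the lowest of all 8. The difference was -0.59 ± 0.30 (SE), a ratio of 0.663 with a 95% interval of 0.414 to 1.06 (limma, adjusted p = 0.98), and the exact permutation p was 0.171. Without rTF replicate 1 the difference was -0.93 with an unadjusted limma p of 0.000586 and an adjusted p of 0.664.

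Ccl22 was at 7.29, 7.22, 6.93 and 7.17 with rCPS1, against 7.15, 7.43, 7.76 and 7.57 with rTF. Here too rTF replicate 1 was the array that lay among the rCPS1 values, and the other 3 rTF arrays lay above all 4 rCPS1 arrays. The difference was -0.33 ± 0.15 (SE), a ratio of 0.796 with a 95% interval of 0.633 to 1.002 (limma, adjusted p = 0.98). This was the smallest unadjusted p of the 9 genes, 0.0514, with an exact permutation p of 0.114. Without rTF replicate 1 the difference was -0.44 with an unadjusted limma p of 0.011 and an adjusted p of 0.758.

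Pdcd1lg2, for PD-L2, was at 6.0, 6.44, 6.34 and 6.32 with rCPS1, against 6.26, 6.43, 6.40 and 6.66 with rTF. Only rCPS1 replicate 1 lay below every rTF array. The difference was -0.16 ± 0.13 (SE), a ratio of 0.893 with a 95% interval of 0.725 to 1.10 (limma, adjusted p = 0.98). It was -0.073 without rCPS1 replicate 1 and -0.089 without rTF replicate 4. The gene for the other PD-1 ligand, Cd274, lies on the same chromosome, 19, and had a difference of 0.27 ± 0.17 (SE, limma, adjusted p = 0.98), with levels of 10.83, 10.37, 10.44 and 10.58 in rCPS1 arrays against 10.39, 9.83, 10.31 and 10.58 in rTF arrays.

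**Figure D2:**
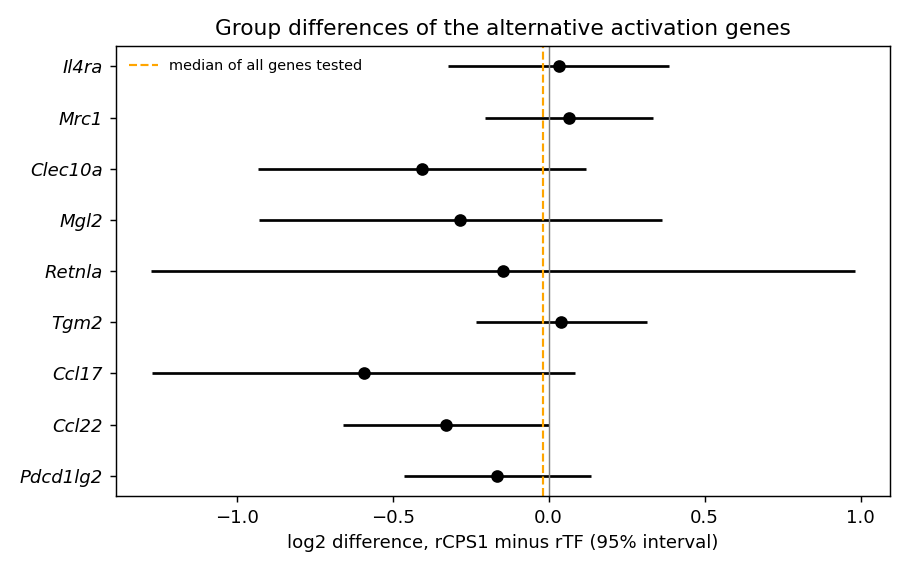
Log2 difference, rCPS1 minus rTF (horizontal axis), of each of the 9 genes with its 95% interval from limma over 8 arrays; the dashed line is the median of all genes tested. Every interval holds 0, those of Mrc1 and Tgm2 are the narrowest, and that of Ccl22 ends at 0.0025.

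Ccl17, Ccl22 and Mgl2 are also genes of dendritic cells, whose markers were set beside them, and no relation passed adjustment. The mean level of 13 measured dendritic cell genes, led by Dpp4 and Cd83 and including Flt3, Zbtb46 and Xcr1, was 6.33 to 6.55 on rCPS1 arrays and 6.38 to 6.84 on rTF arrays, with 10 of the 13 lower in the rCPS1 mean and 0 at an unadjusted p under 0.05. All 13 lay above the median row. Within rTF the lowest dendritic mean was that of replicate 1, which was also lowest for Ccl17, Ccl22 and Mgl2. Over the 8 arrays Ccl17 followed this mean with r = 0.89 and Spearman's rho = 0.952 (exact permutation p = 0.00295 and 0.00114), and r was 0.823 without the arrays farthest from the median, rCPS1 replicate 2 and rTF replicate 2. Mgl2, which also marks a subset of dendritic cells, followed it with r = 0.891 and rho = 0.81 (exact permutation p = 0.00298 and 0.0218), and r was 0.673 without the same arrays. For Ccl22, r was 0.599 and rho 0.738 (exact permutation p = 0.117 and 0.0458). Among the 99 relations of 9 genes with 11 cell type lists none passed adjustment: the adjusted p of r was 0.148 for Ccl17, 0.148 for Mgl2 and 0.526 for Ccl22, and that of rho 0.113, 0.36 and 0.567. With the dendritic mean as a covariate, the difference between rCPS1 and rTF was -0.11 ± 0.22 (SE) for Ccl17, -0.24 ± 0.17 for Ccl22 and 0.20 ± 0.18 for Mgl2. With the endothelial marker mean as the covariate instead, these differences were -0.70 ± 0.19, -0.36 ± 0.13 and -0.35 ± 0.25. Their adjusted limma p was then 0.784, 0.89 and 0.911. The part of either cell type in these differences was not tested.

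**Figure D3:**
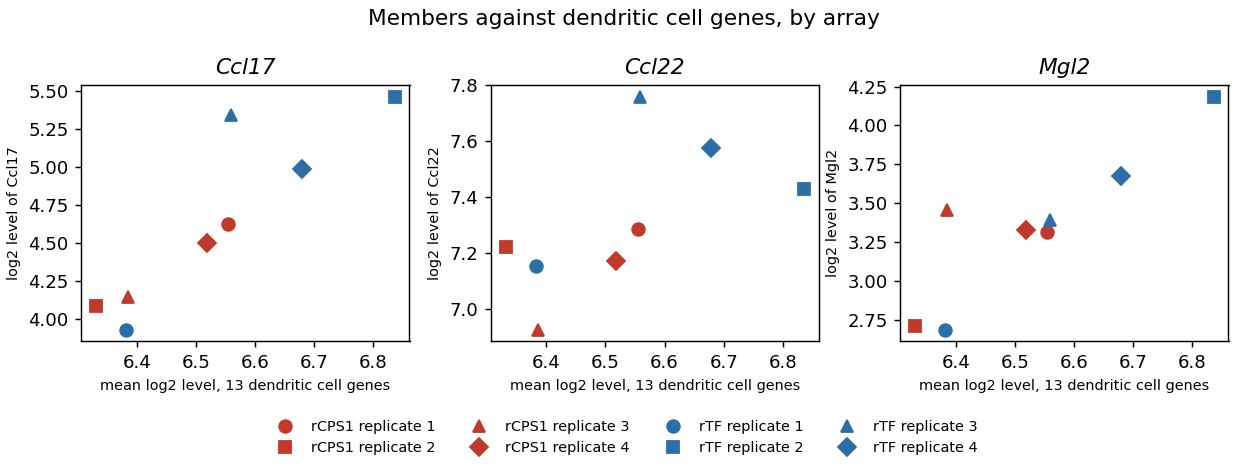
Log2 level of Ccl17, Ccl22 and Mgl2 (vertical axes) against the mean log2 level of 13 dendritic cell genes (horizontal axis), a point for each array, rCPS1 in red and rTF in blue. Points run from lower left to upper right for Ccl17 and Mgl2, where rTF replicate 1 is the lowest point, and for Ccl22 that array lies among the rCPS1 arrays.

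Relations to the markers of other cell types did not pass adjustment either. The mean of 10 infiltrating monocyte genes was 7.51 to 7.65 with rCPS1 and 8.02 to 8.57 with rTF, with 10 of 10 lower and 8 at an unadjusted p under 0.05 and lower, against 2.79% of all genes. Of these 10 genes, 6 had groups apart, all lower, against 2.92% of all genes in either direction. The relation of the monocyte mean to Ccl22 over the arrays was r = 0.848 and rho = 0.81 (exact permutation p = 0.00729 and 0.0218, adjusted p = 0.204 and 0.36), with r = 0.663 without rTF replicates 2 and 3. The mean of 11 T and NK cell genes was 5.89 to 6.40 with rCPS1 and 6.15 to 7.38 with rTF, with 10 of 11 lower. At an unadjusted p under 0.05, 3 of the 11 were lower, against 2.79% of all genes, and 1 had groups apart, against 2.92%. Mgl2 followed the T and NK cell mean with r = 0.824 and rho = 0.833 (exact permutation p = 0.0103 and 0.0154, adjusted p = 0.204 and 0.36), and r was 0.962 without rCPS1 replicate 4 and rTF replicate 2. Ccl17 followed it with r = 0.702 and rho = 0.667 (exact permutation p = 0.0292 and 0.0831, adjusted p = 0.361 and 0.712), and r was 0.679 without the same arrays. Negative relations were as large: for the mean of 10 eosinophil, basophil and mast cell genes, 7 of them below the median row, Il4ra had r = -0.789 and rho = -0.85 (exact permutation p = 0.00853 and 0.0115, adjusted p = 0.204 and 0.36), and r = -0.846 without rTF replicates 2 and 3. Tgm2 had r = -0.881 and rho = -0.619 with the same list (exact permutation p = 0.014 and 0.115, adjusted p = 0.231 and 0.712), and r = -0.552 without those arrays. Mrc1 and the endothelial mean had r = 0.631 and rho = 0.738 (exact permutation p = 0.0823 and 0.0458, adjusted p = 0.514 and 0.567), and r = 0.853 without rCPS1 replicate 3 and rTF replicate 1. With the mean of 6 B cell genes Mrc1 had a larger r, 0.801, and rho = 0.429. Their exact permutation p was 0.021 and 0.299 (adjusted p = 0.297 and 0.74). That r was 0.147 without rCPS1 replicate 2 and rTF replicate 1. Ccl22 and the mean of 9 stellate cell and fibroblast genes had r = 0.72 and rho = 0.81. Their exact permutation p was 0.0444 and 0.0218 (adjusted p = 0.488 and 0.36). This r was higher without rCPS1 replicate 4 and rTF replicate 1. The mean of 10 neutrophil genes was 4.75 to 5.57 with rCPS1 and 5.88 to 6.71 with rTF, with 10 of 10 lower and a median log2 difference of -1.08. Of these 10 genes, 8 were at an unadjusted p under 0.05 and lower, against 2.79% of all genes, and 6 had groups apart, against 2.92% in either direction. The mean of 12 Kupffer cell genes was 8.89 to 9.55 with rCPS1 and 8.75 to 9.44 with rTF, with 12 of 12 higher and 0 at an unadjusted p under 0.05. What part these cells have in the values of the 9 genes was not tested.

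The 9 genes did not vary as 1 block. Of their 36 pairs, 22 had a positive and 14 a negative r over the 8 arrays, with a median of 0.0963 and a range of -0.693 (Mgl2 and Tgm2) to 0.822 (Mrc1 and Mgl2), and none passed adjustment over the 36 (smallest adjusted p of r 0.167, by exact permutation). Mrc1 and Mgl2 had r = 0.822 and rho = 0.69 (exact permutation p = 0.0112 and 0.0694, adjusted p = 0.167 and 0.433). Without rCPS1 replicate 2 and rTF replicate 1, and with the group means left in, r was 0.429. The value of 0.822 therefore depends on those arrays. With each group's mean taken out r was 0.982, and it was 0.968 within rCPS1 and 0.997 within rTF. These within-group values were not recomputed without those arrays. The neighbouring chemokine genes Ccl17 and Ccl22 had r = 0.819 and rho = 0.81 (exact permutation p = 0.0133 and 0.0218, adjusted p = 0.167 and 0.335), 0.729 with the group means taken out and 0.775 without rTF replicates 2 and 3. Mgl2 and Ccl17 had r = 0.808 and rho = 0.786 (exact permutation p = 0.0139 and 0.0279, adjusted p = 0.167 and 0.335), and 0.563 without rTF replicates 1 and 2. The neighbouring lectin genes Clec10a and Mgl2 had r = -0.0853 and rho = 0.0476 (exact permutation p = 0.853 and 0.935, adjusted p = 0.977 and 1).

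Genes of the most like pattern were sought for each member among 11442 genes above the median row, by Pearson's r over the 8 arrays, as a description with no test. For Ccl17 they were Hyou1 (r = 0.986), Arhgap9 (0.955) and Herpud1 (0.953), of which Hyou1 and Herpud1 belong to the response to unfolded protein in the endoplasmic reticulum. For Ccl22 they were Anpep (0.937), the surface peptidase CD13 of myeloid cells, Rasl10b (0.935) and Fbh1 (0.935). For Mgl2 they were the mitochondrial chaperone gene Hspd1 (0.979), Zfp868 (0.963) and Tnfrsf18 (0.963), which encodes GITR, a receptor found on T cells. For Mrc1 they were Cdca8 (0.949), Tpcn1 (0.937) and Kdm5d (0.933), and for Il4ra Dnal4 (0.963), Tgfbr3 (0.957) and Osmr (0.945). For Retnla they were Tmem106b (0.969), Rnls (0.955) and Gcnt1 (0.954), for Clec10a Peli2 (0.959), Dgkq (0.919) and Adssl1 (0.914), for Pdcd1lg2 Anapc1 (0.917), Fam110a (0.916) and Atg101 (0.906), and for Tgm2 Kansl3 (0.971), Togaram1 (0.955) and Susd6 (0.953). Between 3 genes (for Pdcd1lg2) and 72 (for Mgl2) had r above 0.9 with a member, and the 8 points share the arrays and their normalization.

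Lists of related genes covered the IL-4 ligands, receptor chains, signalling and regulators, other IL-4-induced genes, regulatory and scavenging genes, partners of the 9 members and, for contrast, genes of classical activation. Of 81 genes on these 7 lists, 75 were measured, with 38 higher and 37 lower in the rCPS1 mean, a median log2 difference of 0.0040 and 0 with an adjusted p under 0.05. At an unadjusted p under 0.05 there were 4 (5.33%), against 4.67% of all genes, which is close to it. All 4 were lower, as were 2.79% of all genes at that p. Among ligands and receptor chains, Il4 had a difference of -0.36 ± 0.26 (SE), Il13 of -0.11 ± 0.16 and Il13ra1, which encodes the chain that pairs with IL-4 receptor alpha, of 0.092 ± 0.14. Stat6, the transcription factor gene, was at 9.03 ± 0.059 in rCPS1 arrays and 9.05 ± 0.031 in rTF arrays (SD, n = 4 each) and a difference of -0.019 ± 0.096 (SE). Of the other signalling genes, the 3 of smallest p were the adaptor Irs2 (-0.28 ± 0.18), the kinase Jak2 (0.20 ± 0.15) and the kinase Tyk2 (-0.16 ± 0.16). Among regulators of the state they were the lipid-sensing nuclear receptor Pparg (0.35 ± 0.20), the histone demethylase Kdm6b (0.21 ± 0.16) and the transcription factor Klf4 (0.15 ± 0.15). None of the 11 regulators reached an unadjusted p of 0.05.

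Other genes that IL-4 induces in mouse macrophages were split around 0, with 7 higher and 8 lower of 15 measured and a median of -0.010. Chil3, the chitinase-like protein Ym1, stood apart from the 9 members: it was at 8.91, 8.93, 8.27 and 8.60 with rCPS1, against 10.03, 9.59, 10.28 and 9.35 with rTF. Every rCPS1 array lay below every rTF array. Of the 75 measured genes on the 7 lists, 2 had groups apart, Chil3 and, described below, Il1rn, against 2.92% of all genes, which is close to that share. The difference of Chil3 was -1.13 ± 0.22 (SE, limma, adjusted p = 0.862), and Chil3 is also a product of monocytes and neutrophils, whose list means were lower on every rCPS1 array than on any rTF array. The part of these cells in the Chil3 difference was not tested. Rnase2a, a secreted ribonuclease gene, differed by -0.51 ± 0.18 (adjusted p = 0.98) and Chil4, on a row far below the median level, by 0.28 ± 0.15 (adjusted p = 0.98), whereas Arg1, the arginine-degrading enzyme most often used as a marker of this state, differed by 0.048 ± 0.34 (adjusted p = 0.994).

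Genes of regulation and scavenging had 7 members higher and 4 lower of 11. Il1rn, the antagonist of the interleukin 1 receptor, was at 8.88, 8.90, 9.001 and 8.72 with rCPS1, against 9.28, 9.27, 9.09 and 9.36 with rTF. All rCPS1 values lay below all rTF values, and the difference was -0.37 ± 0.11 (SE, limma, adjusted p = 0.98). Others of the list were Lyve1, also an endothelial gene (-0.28 ± 0.20), the phagocytic receptor Mertk (0.098 ± 0.095), the anti-inflammatory cytokine Il10 (-0.12 ± 0.26) and the haemoglobin scavenger receptor Cd163, also a Kupffer cell gene (0.11 ± 0.39). Among receptor genes listed beside the 9 members, Ccr4, which binds CCL17 and CCL22, differed by -0.56 ± 0.28 (adjusted p = 0.98). The chemokine receptor gene Ccr8 differed by -0.28 ± 0.19, both on rows below the median level, and Pdcd1, the gene of PD-1, by -0.26 ± 0.26. Cx3cl1, between the chemokine genes, differed by 0.20 ± 0.19.

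Genes of classical, inflammatory activation were split as well, with 8 higher and 10 lower of 18 measured and a median of -0.036. Ptgs2, the inducible cyclooxygenase, was the only one at an unadjusted p under 0.05, with a difference of -0.51 ± 0.19 (SE, limma, adjusted p = 0.98) and groups that overlapped. Next by p were the interleukin 12 subunit Il12a (-0.29 ± 0.18) and the costimulatory ligand Cd80 (-0.27 ± 0.18). The differences of Nos2 (0.0063 ± 0.19), Tnf (-0.022 ± 0.22), Il1b (-0.19 ± 0.14) and Il6 (-0.26 ± 0.28) had unadjusted limma p of 0.974, 0.921, 0.191 and 0.38.

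**Figure D4:**
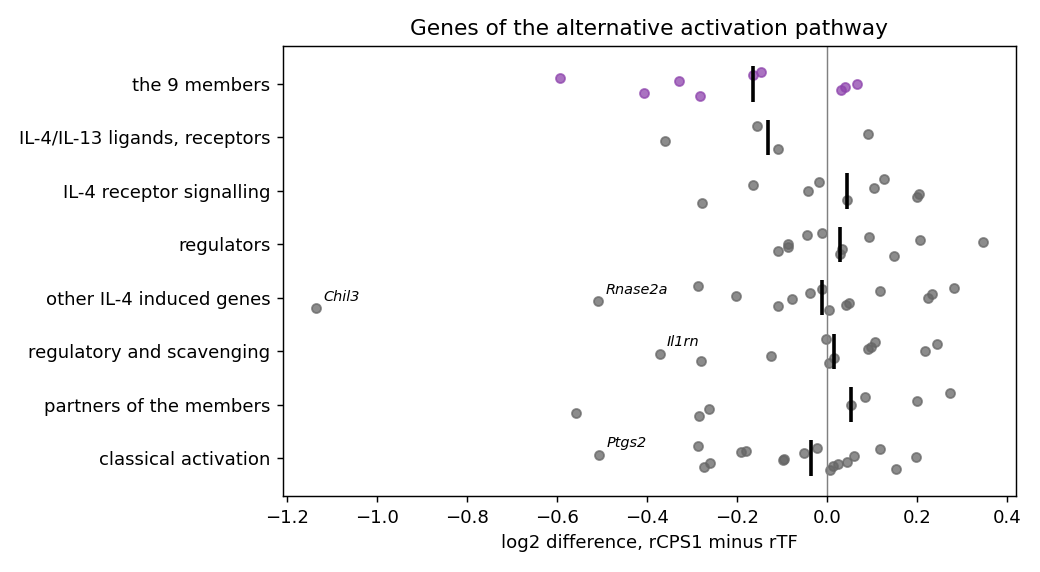
Log2 difference, rCPS1 minus rTF (horizontal axis), of the 9 members and of 7 pathway lists, a point for each gene and a bar for the list's median. The medians of the 7 lists lie between -0.13 and 0.054, against -0.16 for the 9 members, and Chil3 lies at -1.13.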

How the data were processed

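Total RNA of hepatic macrophages was hybridised to Affymetrix arrays after biotin labelling by the WT Plus protocol that the labels describe. The deposited values are log2 levels per row, and the submitters' processing notes name RMA and limma without versions; the build is not given in the sources used here. Rows with exactly 1 symbol in the platform's table were kept (23521 of 41345), and the row of highest mean stood for a gene. limma 3.58.1 (R 4.3.3) set the 4 rCPS1 against the 4 rTF arrays, two-sided, with Benjamini-Hochberg adjustment over all 22180 genes, after the code was tested on simulated data. Exact permutation tests ran over 70 assignments for a difference and over all pairings of 8 arrays for a correlation, in place of the resampling planned, with Python 3.11.15. The number of arrays limits the precision.

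The members and lists were chosen with earlier results of these data known. All members are named, with the 3 genes most alike in pattern to each and, per pathway list, the 3 of smallest p plus fixed ligands, receptors, neighbours and activation genes. Same-numbered arrays did not deviate together (r = -0.124, -0.0331, -0.00531 and 0.0251), so the numbers were not taken as pairs. Alternatives changed the filter, variance model, array weights, normalization, choice of row, covariates and arrays. Jak3 and Il2rg were not analysed here.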

Additional observations from a re-analysis of the deposited data

Results flagged for a closer look

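In none of the 18 groups of values of the 9 members did 1 array stand far from the other 3. Among 102 groups of values examined, members, named pathway genes and cell type list means together, 4 held a flagged array, where chance gives about 1 in 20. Nos2, the inducible nitric oxide synthase gene, was at 4.345 on the array of rCPS1 replicate 2, against 4.866 to 4.94 on the other 3 of that group. Tyk2, a kinase of cytokine receptors, was at 6.487 in rCPS1 replicate 3, against 6.918 to 6.991 on the others. In the rTF group Tyk2 was at 6.642 in replicate 2, against 7.116 to 7.128 on the others. Kdm6b, a histone demethylase gene, was at 9.918 in rTF replicate 2, against 10.42 to 10.46 on the others.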

How the results depend on the processing

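Under all 20 alternatives 0 genes and 0 members passed an adjusted p of 0.05 with limma (smallest adjusted p 0.246 for any gene, without rTF replicate 1, and 0.664 for a member). The member median difference ran from -0.2351 to -0.05398 over the 8 fits that left out an array and from -0.2335 to -0.08763 over the other 12. With the replicate block it was -0.1638, with a smallest adjusted p of 0.995, and the block changed no call. At an unadjusted p under 0.05 there were 1035 genes, but 609 with dim rows left out, where Mgl2 has no value, and 1879 over all rows, by the number of features tested. Members at that p numbered 0, but 1 with dim rows left out, limma-trend, quantile normalization, centring or without rCPS1 replicate 2, 2 with array weights or the endothelial covariate, and 3 without rTF replicate 1. Il4ra turned to -0.01097 with array weights, -0.008243 with centring and -0.05354 with the dendritic covariate, which also turned Mgl2 to 0.2032 and Tgm2 to -0.06228; the cause was not tested. Leaving out arrays, Mrc1 ran from -0.004776 to 0.1239, Il4ra from -0.05389 to 0.1533, Retnla from -0.4837 to 0.3671 and Tgm2 from -0.05398 to 0.0833. Relations under quantile normalization and centring, chosen after seeing the data, gave r of 0.748 and 0.89 for Mrc1 and Mgl2, 0.815 and 0.841 for Ccl17 and Ccl22, and 0.889 and 0.886 for Ccl17 and the dendritic mean.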

Other observations

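Retnla, the most variable of the 9 genes, was set beside Alox15, a lipoxygenase gene that IL-4 also induces, after the values of both had been seen. Alox15 was at 5.72, 7.21, 5.30 and 4.45 on the rCPS1 arrays, against 5.86, 7.28, 4.62 and 4.89 on the rTF arrays, a difference of 0.0055 ± 0.65 (SE). Both genes were highest in replicate 2 of each group, and both were lowest in rCPS1 replicate 4. Over the 8 arrays r was 0.832 and rho 0.738 (exact permutation p = 0.0116 and 0.0458), and r was 0.835 with the group means taken out and 0.835 without rCPS1 replicate 4 and rTF replicate 3. The pair was picked for its likeness, so these p-values are a description.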
